A study of Mus musculus with 24 samples.

Results

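The genes described here are the chitinases and chitinase-like genes of mouse lung, 7 genes taken by symbol: *Chia1*, *Chit1*, *Chil1*, *Chil3*, *Chil4*, *Ctbs* and *Chid1*. Older names are *Chia* for *Chia1* and *Chi3l1*, *Chi3l3* and *Chi3l4* for *Chil1*, *Chil3* and *Chil4*. Each has 1 probe set that names no other gene, so 7 of 7 were measured, among 19938 genes with such a probe set. RNA came from the left lung lobe of male C57Bl/6N Tac mice kept under specific-pathogen-free conditions, either wild-type (WT) or *Scnn1b*-Tg, at post-natal day (PND) 0, 3, 10 and 42. *Scnn1b*-Tg mice carry a transgene for the beta subunit of the epithelial sodium channel that is over-expressed in airway club cells, and the animals received no treatment. Each of the 8 groups has 3 arrays and each array holds 1 pool, for which the labels list 2 animals on 23 arrays and 1 animal on 1 array (*Scnn1b*-Tg PND 42 replicate 3). The methods of the study describe more mice per pool than the labels list. Values are log2 intensities on Affymetrix Mouse Gene 1.0 ST arrays, and the number of pools limits their precision.

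Chitinases of this family cut chitin, a polymer of N-acetylglucosamine found in fungi, insects and parasites. *Chia1* encodes acidic mammalian chitinase, made by lung epithelium and stomach, and *Chit1* encodes chitotriosidase, another active chitinase. The chitinase-like proteins keep the fold but have lost the catalytic residue: *Chil1* encodes BRP-39, while *Chil3* and *Chil4* encode Ym1 and Ym2, proteins of alternatively activated macrophages and of airway epithelium in allergic inflammation. *Ctbs* encodes chitobiase, a lysosomal enzyme that removes the last sugar of N-linked glycans, and *Chid1* encodes a chitinase domain protein that binds saccharides.

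*Chia1*, *Chil3* and *Chil4* lie in 1 cluster on chromosome 3 together with the relatives *Chil5*, *Chil6* and *Ovgp1*, and *Chit1* and *Chil1* are next to each other on chromosome 1 (RefSeq annotation of GRCm38.p6). The bases before the starts of *Chil3* and *Chil4* are shown because these genes are near copies of each other and changed unequally. In RefSeq windows of 250 bases before and 50 after each start, the genes aligned over 271 bases, of which 251 were identical (92.6%). The longest stretch without a gap was 102 bases, at chr3:106167589-106167690 for *Chil3* and chr3:106219533-106219634 for *Chil4*, both on the minus strand, and the 12 bases that differ are in capitals:
Chil3: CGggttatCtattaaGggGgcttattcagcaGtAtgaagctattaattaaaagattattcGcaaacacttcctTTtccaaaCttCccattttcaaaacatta
Chil4: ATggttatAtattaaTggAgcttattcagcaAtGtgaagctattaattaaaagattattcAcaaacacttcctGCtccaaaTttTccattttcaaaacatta
The 250 bases before *Chia1*, the other member called higher in *Scnn1b*-Tg lungs at PND 42, are at chr3:106113132-106113381 on the plus strand, with a TATA box in capitals:
Chia1: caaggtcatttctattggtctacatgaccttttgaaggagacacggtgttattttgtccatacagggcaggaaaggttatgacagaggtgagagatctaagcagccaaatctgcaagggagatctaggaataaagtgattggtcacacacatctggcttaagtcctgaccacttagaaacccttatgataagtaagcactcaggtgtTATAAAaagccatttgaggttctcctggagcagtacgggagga

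On both strands of the 250 bases, the letters TATAAA were found before *Chil4* (31 to 26 bases before the start) and *Chia1* (43 to 38 bases), against 12.4% of 32851 RefSeq promoters. In the alignment the same 6 letters of *Chil3* straddled its annotated start, which lies 28 bases further upstream than that of *Chil4*. The letters TTGCNNAA of a C/EBP site were found before *Chil4* alone among the 9 member starts (9.56% of all promoters), and the counterpart in *Chil3* differed at 1 base. The FOXA letters TGTTTNC were found before *Chil3* (66 to 60 bases before the start, within the stretch shown) and not before *Chil4*, whose counterpart differed at 1 base. In all they were found at 3 of the 9 starts (17.8% of all promoters). The STAT6 letters TTCNNNNGAA were found at 0 of the 9 starts (5.85% of all promoters). These matches describe the letters of the windows only. Probe sequences were not used here, so how far the *Chil3* and *Chil4* probe sets respond to each other's transcripts was not tested.

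Arrays differed little in scale, with array medians of 4.79 to 4.996 log2. *Scnn1b* was higher in *Scnn1b*-Tg pools by 2.93 to 3.29 log2 at the 4 ages without overlap, so the arrays carried the labelled genotype. All 10 alveolar type II and all 9 club cell markers had group means above 5 in every group, as a check of the lung label. A gene is called where limma, fitted across 21789 probe sets, gave a p of at most 0.05 after Benjamini-Hochberg adjustment and a change of at least 2-fold.

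Genotype differences in the family were called at the later ages. At PND 42, 3 of the 7 genes were higher in *Scnn1b*-Tg lungs than in WT lungs (*Chil4*, *Chil3* and *Chia1*) where 0.326% of all probe sets were called higher. At that age 4 of 7 had pools that did not overlap between genotypes, those 3 and *Chil1*, against 10.7% of all probe sets. Pools also did not overlap at PND 0 for *Chid1* and *Chil4*, both lower in *Scnn1b*-Tg (-0.24 and -0.29 log2, limma adjusted p = 0.9999 for each). At PND 10 they did not overlap for *Chil4* (lower) and *Chil1* (0.20 log2 higher, limma adjusted p = 0.962). The share of all probe sets without overlap is not given for PND 0 and PND 10, so these cases are listed as a description only. At PND 10, 1 of 7 was lower (*Chil4*), where 0.0459% of all probe sets were called lower. At PND 0 and PND 3 limma called 0 of 7, with 0 and 1 members at an unadjusted p under 0.05, where 0.0138% and 0.0184% of probe sets were called. The 1 member was *Chid1* at PND 3, at a difference of -0.36 log2 (adjusted p = 0.642, limma with Benjamini-Hochberg). The median difference of the 7 genes was 1.13 log2 at PND 42 and at most 0.16 from 0 at the earlier ages, and the median of all probe sets was within 0.02 of 0 at each age.

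**Figure D1:**
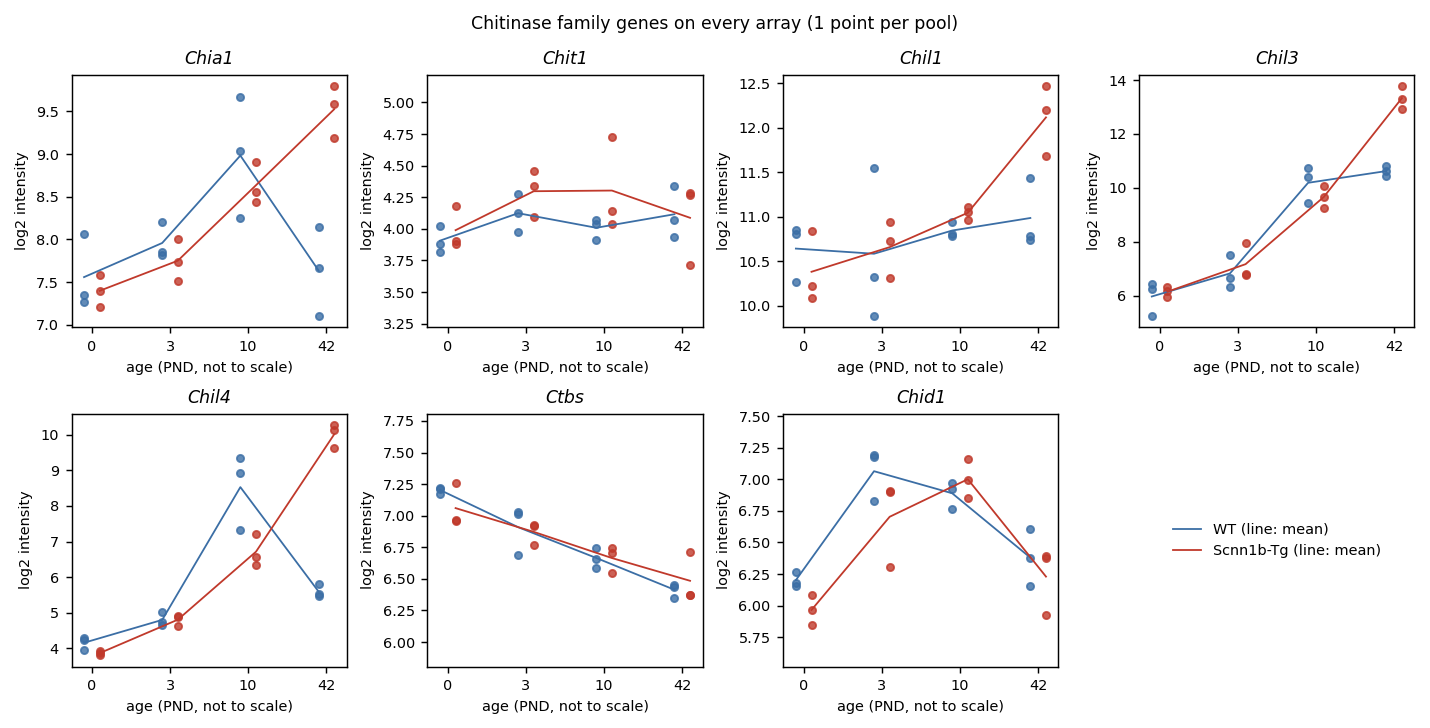
Log2 intensity (vertical axis, scaled per gene) of the 7 genes at PND 0, 3, 10 and 42 (horizontal axis, not to scale), with 1 point per pool and a line through the means of 3 pools, WT in blue and *Scnn1b*-Tg in red. *Chil4* peaks at PND 10 in WT (mean 8.53) and at PND 42 in *Scnn1b*-Tg (mean 10.01), whereas *Chit1* stays below 5 on every array.

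*Chia1*, the active chitinase, was measured at 7.11 to 9.80 log2 over the 24 arrays. In WT pools it was 7.27, 7.35 and 8.06 at PND 0, 7.82, 7.86 and 8.20 at PND 3, 8.25, 9.03 and 9.67 at PND 10, and 7.11, 7.66 and 8.14 at PND 42. In *Scnn1b*-Tg pools it was 7.21, 7.40 and 7.59 at PND 0, 7.52, 7.73 and 8.01 at PND 3, 8.44, 8.56 and 8.90 at PND 10, and 9.19, 9.59 and 9.80 at PND 42. The genotypes overlapped at PND 0, 3 and 10, and all *Scnn1b*-Tg pools lay above all WT pools at PND 42.

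The PND 42 difference of *Chia1* was 1.89 log2 (SE 0.29, 3.70-fold), with a Benjamini-Hochberg adjusted p = 0.000807 by limma. Over PND 10 to PND 42 *Chia1* fell by 1.34 log2 in WT lungs (SE 0.29, limma adjusted p = 0.00111), whereas in *Scnn1b*-Tg lungs the change was 0.89 log2, an adjusted p of 0.0228 in limma but under 2-fold. These changes differed between genotypes by 2.23 log2 (SE 0.41, limma adjusted p = 0.0172). Without WT PND 10 replicate 1 or 2, *Scnn1b*-Tg PND 10 replicate 3 or *Scnn1b*-Tg PND 42 replicate 2 this difference no longer passed (1.89, 2.21, 2.14 and 2.10 log2, limma adjusted p = 0.0613, 0.0578, 0.0547 and 0.0571). Its WT rise from PND 3 to PND 10, 1.02 log2 (SE 0.29, limma adjusted p = 0.0407), passed in 1 of 6 fits that left out 1 array, the one without WT PND 10 replicate 3. No neighbours in the order of the 8 group means of *Chia1* passed the test, and the pools of 1 neighbouring pair did not overlap (*Scnn1b*-Tg PND 10 over WT PND 3, 0.68 log2, limma adjusted p = 0.452).

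*Chit1*, the other active chitinase, gave 3.71 to 4.73 log2 over all arrays, and 0 of its 8 group means exceeded 5. It was called in 0 of 17 comparisons by limma, with 0 at an unadjusted p under 0.05, and the genotype difference at PND 42 was -0.03 log2 (95% interval -0.38 to 0.32). At so dim a signal the values show only that no change was detected.

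*Chil3* (Ym1) had the widest course of the 7 genes, with group means that spanned 7.35 log2. In WT pools it was 5.26, 6.24 and 6.43 at PND 0, 6.31, 6.67 and 7.51 at PND 3, 9.42, 10.42 and 10.73 at PND 10, and 10.42, 10.63 and 10.82 at PND 42. In *Scnn1b*-Tg pools it was 5.94, 6.18 and 6.33 at PND 0, 6.77, 6.80 and 7.95 at PND 3, 9.25, 9.66 and 10.07 at PND 10, and 12.93, 13.28 and 13.78 at PND 42. The WT pools of PND 10 and PND 42 overlapped, as did the genotypes at PND 10, whereas the *Scnn1b*-Tg pools of PND 42 lay above all 21 other arrays.

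At PND 42 the difference of *Chil3* was 2.70 log2 (SE 0.37, 6.52-fold, limma adjusted p = 0.000223). The change from PND 10 to PND 42 was 0.43 log2 in WT lungs (95% interval -0.33 to 1.20) and 3.67 log2 in *Scnn1b*-Tg lungs (95% interval 2.90 to 4.43), and the difference between these changes was 3.23 log2 (SE 0.52, limma adjusted p = 0.00521). Of the 7 genes, *Chil3* alone was called between PND 0 and PND 3, in *Scnn1b*-Tg lungs, by 1.02 log2 (SE 0.37, limma adjusted p = 0.0266), where 2.26% of all probe sets were called upward. In WT lungs that interval gave 0 called members by limma, where 9.75% of all probe sets were called. There 3 members had an unadjusted p under 0.05 and 2 passed the adjusted p without a fold threshold, as did 46.6% of all probe sets. The *Chil3* call in *Scnn1b*-Tg lungs was lost without *Scnn1b*-Tg PND 0 replicate 1 or 2 or *Scnn1b*-Tg PND 3 replicate 1 (0.92, 1.04 and 0.63 log2, limma adjusted p = 0.0806, 0.0556 and 0.178). In the order of its group means only 2 gaps exceeded the spread, *Scnn1b*-Tg PND 42 over WT PND 42 and *Scnn1b*-Tg PND 10 over *Scnn1b*-Tg PND 3.

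*Chil4* (Ym2) was the one gene of the family whose genotype difference was called at 2 ages, in opposite directions. In WT pools it was 3.94, 4.23 and 4.29 at PND 0, 4.639, 4.744 and 5.004 at PND 3, 7.32, 8.93 and 9.34 at PND 10, and 5.46, 5.51 and 5.81 at PND 42. In *Scnn1b*-Tg pools it was 3.81, 3.86 and 3.92 at PND 0, 4.64, 4.88 and 4.89 at PND 3, 6.34, 6.58 and 7.22 at PND 10, and 9.63, 10.13 and 10.27 at PND 42. In WT lungs the gene was high at PND 10 alone, and in *Scnn1b*-Tg lungs each age lay above the one before, with no overlap between PND 3, PND 10 and PND 42. The group means at PND 0 and PND 3 lay between 3.86 and 4.80, below 5. Dim signals thus limit the differences at these ages and the changes measured from them.

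The difference of *Chil4* was -1.82 log2 at PND 10 (SE 0.32, 3.52-fold lower, limma adjusted p = 0.00976) and 4.42 log2 at PND 42 (SE 0.32, 21.4-fold higher, limma adjusted p = 1.84e-08). The PND 10 call was lost without WT PND 10 replicate 1 or 2 (-1.41 and -1.62 log2, limma adjusted p = 0.0818 and 0.0907), and the PND 42 difference stayed between 4.29 and 4.61 log2 in all 6 fits without 1 array. The changes from PND 10 to PND 42 in WT and *Scnn1b*-Tg lungs ran in opposite directions and differed by 6.23 log2 (SE 0.45, limma adjusted p = 4.75e-08). From high to low the first 4 group means were *Scnn1b*-Tg PND 42, WT PND 10, *Scnn1b*-Tg PND 10 and WT PND 42, and each differed from the next by 1.48, 1.82 and 1.12 log2 (limma adjusted p = 0.00116, 0.00976 and 0.0107). The remaining gaps did not pass the test, although the pools did not overlap for WT PND 42 over *Scnn1b*-Tg PND 3, WT PND 3 over WT PND 0 and WT PND 0 over *Scnn1b*-Tg PND 0.

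**Figure D2:**
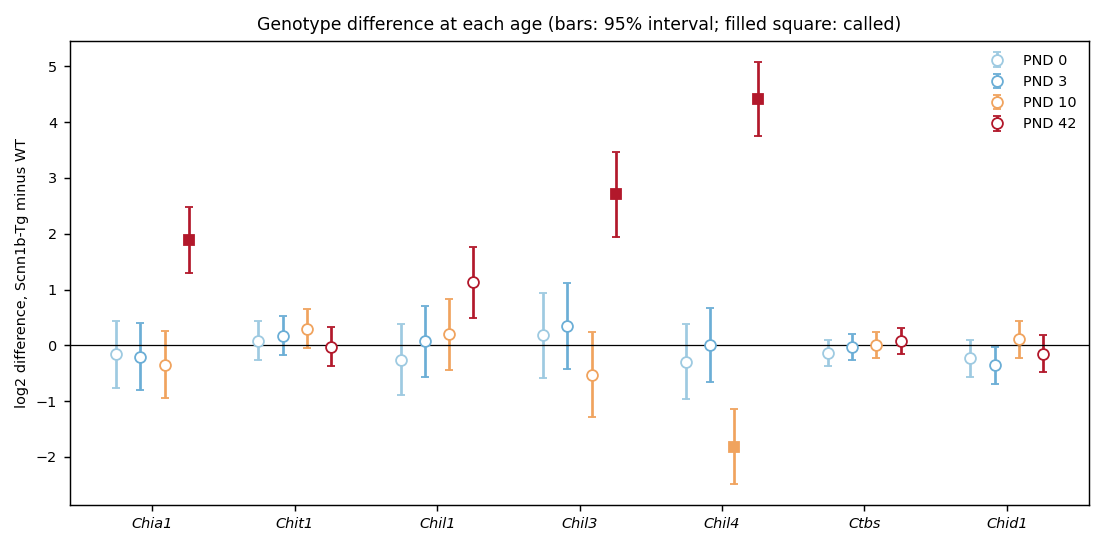
Log2 difference of *Scnn1b*-Tg minus WT (vertical axis) for each of the 7 genes (horizontal axis) at PND 0, 3, 10 and 42, with 95% intervals from limma as bars, filled squares for called differences and open circles for the others. *Chil4* lies at -1.82 at PND 10 and at 4.42 at PND 42, and all intervals of *Chit1* and *Ctbs* include 0.

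*Chil3* and *Chil4*, whose sequences before the start are shown above, followed different courses in the WT lung. Their log2 difference on the same array (*Chil4* minus *Chil3*) is a scale without a true zero, since the probe sets differ, so only its change between groups is described. It moved by -3.37 log2 from PND 10 to PND 42 in WT pools and by -0.37 log2 in *Scnn1b*-Tg pools. Between PND 0 and PND 42 it moved by -3.21 log2 in WT pools and by -1.02 log2 in *Scnn1b*-Tg pools, and *Scnn1b*-Tg pools had moved by -0.66 log2 at PND 10, each without overlap. The dim *Chil4* signal at PND 0 limits these moves from PND 0. The genotypes did not overlap at PND 10 (-1.29 log2, *Scnn1b*-Tg minus WT) or at PND 42 (1.71 log2). The WT pools of PND 42 lay at -5.36, -5.11 and -4.62, below all 21 other arrays, and the *Scnn1b*-Tg pools of PND 42 lay at -3.65, -3.64 and -2.66. The exact two-sided permutation test gave p = 0.1 for each comparison without overlap and p = 0.4 for the *Scnn1b*-Tg change from PND 10 to PND 42, and 0.1 is the smallest p that 3 against 3 pools allow. This quantity was chosen after the values had been seen.

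**Figure D3:**
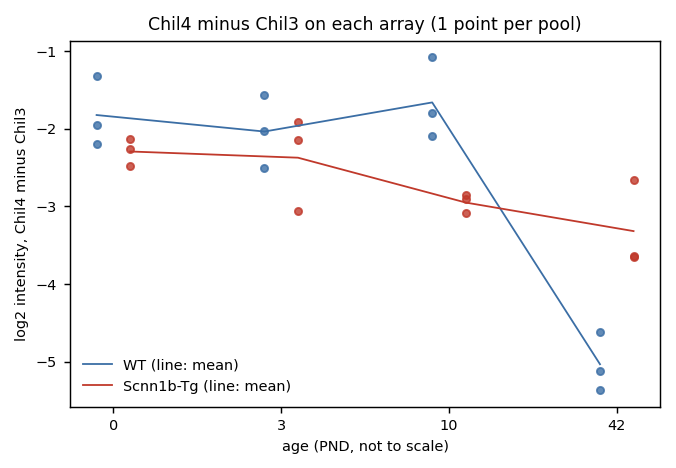
Log2 intensity of *Chil4* minus that of *Chil3* on the same array (vertical axis) at PND 0, 3, 10 and 42 (horizontal axis, not to scale), with 1 point per pool and lines through the means of 3 pools. WT pools drop from a mean of -1.66 at PND 10 to -5.03 at PND 42, and *Scnn1b*-Tg pools stay between -3.65 and -1.92 at all ages.

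*Chil1* (BRP-39) was bright in every group and moved late. In WT pools it was 10.27, 10.81 and 10.85 at PND 0, 9.89, 10.32 and 11.55 at PND 3, 10.79, 10.81 and 10.94 at PND 10, and 10.74, 10.79 and 11.44 at PND 42. In *Scnn1b*-Tg pools it was 10.08, 10.22 and 10.84 at PND 0, 10.31, 10.73 and 10.94 at PND 3, 10.97, 11.05 and 11.11 at PND 10, and 11.68, 12.20 and 12.47 at PND 42. The WT groups of all ages overlapped, and the *Scnn1b*-Tg pools of PND 42 lay above all 21 other arrays. The genotypes did not overlap at PND 10 either, at a difference of 0.20 log2 (limma adjusted p = 0.962).

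The genotype difference of *Chil1* at PND 42 was 1.13 log2 (SE 0.31, 2.19-fold), with an unadjusted p of 0.00135 and a limma adjusted p of 0.0920, so it was not called although the pools did not overlap. Within *Scnn1b*-Tg lungs the rise from PND 10 to PND 42 was called at 1.07 log2 (SE 0.31, limma adjusted p = 0.0106). That call was lost without *Scnn1b*-Tg PND 42 replicate 2 (0.90 log2, limma adjusted p = 0.0542), and the rise was under 2-fold after quantile normalization was repeated (0.95 log2). The changes of the genotypes over that interval differed by 0.93 log2 (95% interval 0.03 to 1.83, limma adjusted p = 0.480), which does not pass.

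**Figure D4:**
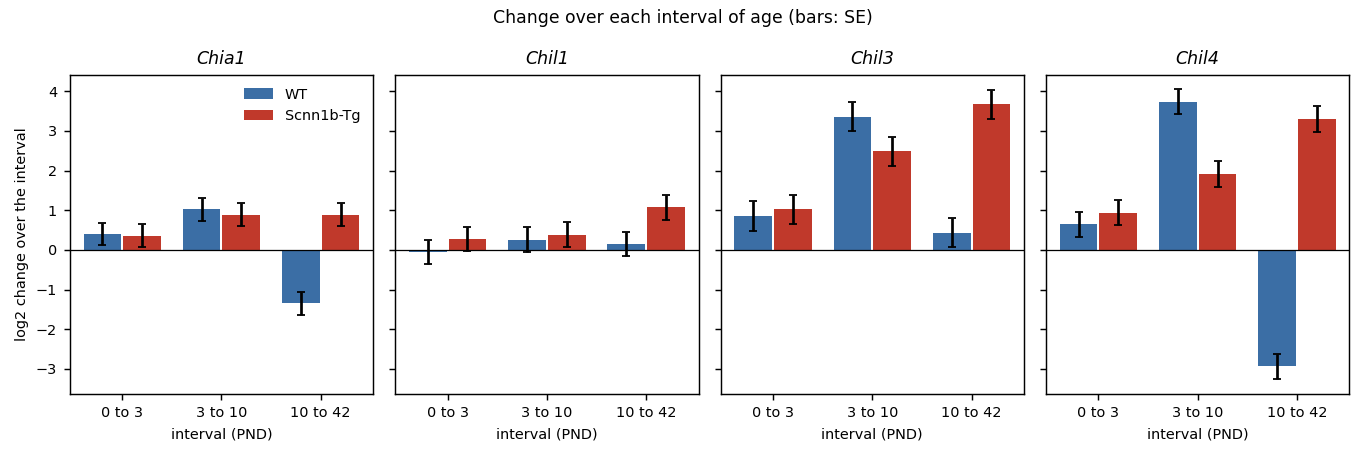
Log2 change over PND 0 to 3, PND 3 to 10 and PND 10 to 42 (horizontal axis) for *Chia1*, *Chil1*, *Chil3* and *Chil4*, with bars for WT (blue) and *Scnn1b*-Tg (red) and SE as error bars. Over PND 10 to 42 *Chil4* changes by -2.93 in WT and by 3.30 in *Scnn1b*-Tg.

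Most calls over development fell on *Chil3*, *Chil4* and *Chia1*. From PND 3 to PND 10, 3 of 7 genes rose in WT lungs (*Chil3*, *Chil4* and *Chia1*), where 1.05% of all probe sets were called upward, and in *Scnn1b*-Tg lungs 2 of 7 rose (*Chil3* and *Chil4*), where 0.817% were. From PND 10 to PND 42, 2 of 7 fell in WT lungs (*Chil4* and *Chia1*), where 3.84% of probe sets were called downward, and 3 of 7 rose in *Scnn1b*-Tg lungs (*Chil1*, *Chil3* and *Chil4*), where 1.79% were called upward. The difference of this change between genotypes was called for 3 of 7 members, all in the direction of *Scnn1b*-Tg, where 0.193% of all probe sets were. Over PND 3 to PND 10 limma called it for 0 of 7, where 0.00918% of all probe sets were called. At an unadjusted p under 0.05 were 2 of 7 (*Chil4* and *Chid1*), and the share of all probe sets at that p is not given. The *Chil4* value over PND 3 to PND 10 was -1.82 log2 (limma adjusted p = 0.406), and without WT PND 10 replicate 3 it was -2.43 log2 and passed (limma adjusted p = 0.000489).

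Set against PND 0, the adult level differed by gene. At PND 42 *Chil3* was higher than at PND 0 by 4.65 log2 in WT lungs (limma adjusted p = 3.69e-09) and 7.18 log2 higher in *Scnn1b*-Tg lungs (limma adjusted p = 5.68e-12). *Chil4* was higher by 1.44 log2 in WT (limma adjusted p = 0.000779) and 6.15 log2 higher in *Scnn1b*-Tg (limma adjusted p = 6.45e-12). Its PND 0 means of 4.15 and 3.86 log2 were dim, so the size of these rises is uncertain. *Chia1* in WT was back near its level at birth, with a difference of 0.08 log2 (95% interval -0.52 to 0.68), while in *Scnn1b*-Tg it was higher by 2.12 log2 (limma adjusted p = 3.48e-06). Called higher than at PND 0 were 2 of 7 members in WT and 4 of 7 in *Scnn1b*-Tg, where 1.71% and 2.48% of all probe sets were called upward. At PND 10 these counts were 3 of 7 and 4 of 7, where 2% and 3.15% were called upward. These comparisons share the PND 0 pools with each other.

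*Ctbs*, the lysosomal chitobiase, fell slowly in both genotypes. Its means were 7.20 ± 0.02, 6.91 ± 0.19, 6.67 ± 0.08 and 6.41 ± 0.05 log2 in WT lungs from PND 0 to PND 42, and 7.06 ± 0.17, 6.87 ± 0.09, 6.67 ± 0.11 and 6.48 ± 0.19 in *Scnn1b*-Tg lungs (mean ± SD, n = 3 pools). From PND 0 to PND 42 it fell by 0.79 log2 in WT (SE 0.11, limma adjusted p = 6.67e-06) whereas the *Scnn1b*-Tg value was -0.58 log2 (SE 0.11, limma adjusted p = 0.000247), both without overlap and under 2-fold. Without a fold threshold 56.3% and 53.8% of all probe sets passed over that span. The genotype difference lay between -0.14 and 0.07 log2 at the 4 ages, and the 95% intervals of those ages lay within -0.38 to 0.31 log2.

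*Chid1* rose early and fell late, again in both genotypes. Its means were 6.20 ± 0.06, 7.06 ± 0.21, 6.89 ± 0.11 and 6.38 ± 0.23 log2 in WT lungs from PND 0 to PND 42, and 5.97 ± 0.12, 6.70 ± 0.35, 7.001 ± 0.16 and 6.23 ± 0.27 in *Scnn1b*-Tg lungs (mean ± SD, n = 3 pools). From PND 0 to PND 3 it rose by 0.86 log2 in WT (SE 0.16, limma adjusted p = 0.000151) while the *Scnn1b*-Tg rise was 0.74 log2 (limma adjusted p = 0.000704), and from PND 10 to PND 42 it fell by 0.51 log2 (limma adjusted p = 0.0183) and by 0.77 log2 (limma adjusted p = 0.00083). Each of these changes was under 2-fold. Without a fold threshold 46.6% and 49.4% of all probe sets passed over the early interval in WT and *Scnn1b*-Tg, and 30.4% and 29.8% over the late one. Against PND 0 it was called at PND 10 in *Scnn1b*-Tg alone, by 1.03 log2 (limma adjusted p = 1.74e-05), a value that was under 2-fold without *Scnn1b*-Tg PND 0 replicate 1 or *Scnn1b*-Tg PND 10 replicate 1 (0.98 and 0.96 log2).

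The other genes of the family in the same cluster were dim. *Chil5* had group means of 3.80 to 4.31 log2 and *Chil6* of 3.74 to 4.23 log2, and limma called 0 of these 2 genes between genotypes at PND 42, with 0 at an unadjusted p under 0.05. *Ovgp1* shares its probe set with *Wdr77* and was not used here.

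Genes whose pattern over the 24 arrays was most like that of the called members are given as a description, since arrays of a group share age and genotype. Among 19931 other genes the highest Pearson r with *Chil4* was that of *Clca1*, a goblet cell protein (0.961), followed by *Slc26a4*, the anion exchanger pendrin (0.949), the mucin *Muc5ac* (0.936), the chemokine *Ccl17* (0.887) and the ribonuclease *Rnase2a* (0.875). The genes nearest to *Chia1* were *Slc26a4* (0.906), *Clca1* (0.842), the protease genes *Ctsk* (0.837) and *Mmp12* (0.833), and *Muc5ac* (0.824). The genes nearest to *Chil3* were others: *Cd74* (0.935) and *H2-Ab1* (0.921) of antigen presentation, the mucin *Muc5b* (0.930), the secretory protein gene *Bpifb1* (0.928) and *Pigr*, the transporter of IgA (0.923). Among the members themselves *Chil4* had r = 0.923 with *Chia1* and r = 0.901 with *Chil3* over the arrays, and r = 0.727 and 0.581 once group means were removed.

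Genes around these proteins were read from lists. Beside the counts of this and the next paragraphs, 0.326% of all probe sets were called higher at PND 42 and 0.0459% lower at PND 10. The share of all probe sets at an unadjusted p under 0.05 is not given, so list counts at that p are a description only. Of 18 measured genes of the type 2 cytokine axis, 5 were higher at PND 42 and 0 lower, with a median difference of 0.38 log2 against 0.00 over all probe sets. The 5 were *Arg1* (2.60 log2, limma adjusted p = 0.00166), *Retnla* (1.99, adjusted p = 0.0187), *Mgl2* (1.46, adjusted p = 2.6e-05), *Ccl24* (1.41, adjusted p = 0.0263) and *Mrc1* (1.27, adjusted p = 0.00197), which are effector genes of alternatively activated macrophages and eosinophil recruitment. Of the cytokines, *Il33* was 7.85 ± 0.15 log2 in WT and 8.66 ± 0.34 in *Scnn1b*-Tg at PND 42, a difference of 0.81 log2 that did not pass (limma adjusted p = 0.549). *Il13* and *Il4* were dim: *Il13* was 3.92 ± 0.25 log2 in WT and 3.95 ± 0.18 in *Scnn1b*-Tg at PND 42, and *Il4* was 3.64 ± 0.03 and 3.73 ± 0.06 (mean ± SD, n = 3 pools). *Il5* and *Il25*, also dim, had lower means in *Scnn1b*-Tg, with pools that overlapped. *Il5* was 4.68 ± 0.53 log2 in WT and 3.93 ± 0.25 in *Scnn1b*-Tg, and *Il25* was 4.81 ± 0.23 and 4.47 ± 0.48. *Tslp* was 4.24 ± 0.16 and 4.29 ± 0.26. At PND 10 limma called 0 of the 18, with 3 at an unadjusted p under 0.05.

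Of 7 genes of chitin and glucosamine polymer recognition, 3 were higher at PND 42, *Reg3g* (1.44 log2, limma adjusted p = 0.00749), *Mrc1* and *Clec7a* (1.03 log2, limma adjusted p = 0.0465), the gene of the glucan receptor dectin-1, with a list median of 1.03 log2. Of 7 binding partners of the chitinase-like proteins limma called 0, with 2 at an unadjusted p under 0.05, and *Lgals3*, the gene of galectin-3, had the greatest difference (1.17 log2, adjusted p = 0.0729). Limma also called 0 of 10 genes of lysosomal glycoprotein degradation and 0 of 8 genes of N-acetylglucosamine reuse at PND 42, with 5 and 2 at an unadjusted p under 0.05. Their medians were 0.32 and 0.09 log2.

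Whole-lung RNA cannot tell more cells of a type from more RNA per cell. Some listed markers of the cells that make these proteins changed along with the members, while most were not called. Of 11 goblet cell markers 4 were higher at PND 42, *Clca1* by 4.05, *Slc26a4* by 3.07, *Gp2* by 2.97 and *Muc5ac* by 1.20 log2, and 2 were lower at PND 10, the latter being *Clca1* (-2.47 log2, limma adjusted p = 1.88e-06) and *Muc5ac* (-1.08 log2, limma adjusted p = 0.015). The log2 of their summed intensity was 10.57 to 11.01 in WT and 12.11 to 12.90 in *Scnn1b*-Tg pools at PND 42. At PND 10 it was 11.05 to 11.55 and 10.15 to 10.93. This sum ran in the direction of *Chil4* at both ages, but bright genes weigh most in it. At PND 10 the *Clca1* mean was 10.17 in WT and 7.69 in *Scnn1b*-Tg lungs. *Bpifb1* was 9.22 and 9.18 there, and *Muc5b* was 7.18 and 7.21. *Clca1* is also the gene nearest to *Chil4* in pattern. The paper describes *Gp2* as a receptor of M cells, so it does not stand for goblet cells alone. Of 11 alveolar macrophage markers 2 were higher at PND 42, *Itgax* (1.96 log2, limma adjusted p = 0.000516) and *Cd68* (1.69 log2, limma adjusted p = 0.000353), with a log2 sum of 11.66 to 11.83 in WT and 12.15 to 12.83 in *Scnn1b*-Tg pools. *Siglecf*, a defining marker of both alveolar macrophages and eosinophils, differed by -0.24 log2 (limma adjusted p = 0.774).

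Of 7 genes listed as eosinophil markers 1 was called higher, *Rnase2a* (2.84 log2, limma adjusted p = 1.84e-08). Under its older name *Ear11*, the paper describes this gene as made by alveolar macrophages and found it higher in purified macrophages at PND 42. It therefore does not stand for eosinophils alone. *Epx* and *Prg2* had means below 5 in both genotypes. The log2 sums of the list, which include *Rnase2a*, were 7.35 to 7.79 in WT and 7.65 to 8.43 in *Scnn1b*-Tg pools. Of 12 neutrophil markers 2 were higher, *Cd177* by 3.10 and *Lcn2* by 2.01 log2, with log2 sums of 10.09 to 10.57 and 11.65 to 12.48. The part of these cells in the change of the members was not tested. Of 9 club cell and 10 alveolar type II markers limma called 0 at PND 42, with 2 and 4 at an unadjusted p under 0.05, and of 10 stomach and salivary markers, which stand for other tissues that express *Chia1*, and 7 thymocyte markers it called 0, with 1 and 0. The stomach and salivary sum was 7.48 to 7.69 over the 6 pools of PND 42, and 0 of its 10 genes had a group mean above 5 in either genotype.

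**Figure D5:**
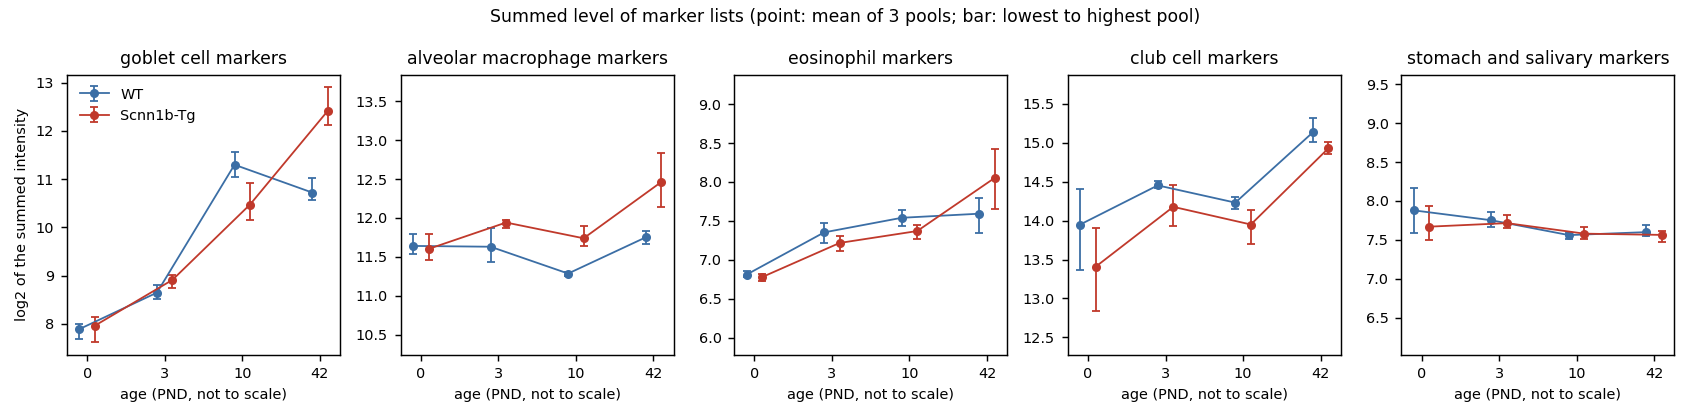
Log2 of the summed intensity of 5 marker lists (vertical axis, scaled per list) at PND 0, 3, 10 and 42 (horizontal axis, not to scale), with points for the means of 3 pools and bars from the lowest to the highest pool, WT in blue and *Scnn1b*-Tg in red. Goblet cell markers are at 11.30 in WT and 10.47 in *Scnn1b*-Tg at PND 10 and at 10.72 and 12.41 at PND 42, the order that *Chil4* shows. Bright genes such as *Clca1* weigh most in these sums.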

How the data were processed

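Per the labels and the study's methods, the authors summarized the array signals by RMA with quantile normalization in Partek (version 6.5 in the submitters' processing notes, another version in the methods) and deposited 1 log2 value per transcript cluster and array (35556 rows). Nothing was normalized again. Genes were named through the platform annotation, and 21789 rows that name exactly 1 gene were tested. In 1 case (*Hexdc* for *Hexd*) an older symbol was matched. In R 4.3.3, limma 3.58.1 (with statmod 1.5.0) fitted 8 group means to all 24 arrays (16 residual degrees of freedom), and contrasts gave genotype at each age, intervals within a genotype and their difference. Benjamini-Hochberg adjustment ran over all tested rows of 1 contrast. The fit was tested on simulated data with known changes. Promoter windows were aligned with Biopython 1.88, and figures were drawn with matplotlib 3.10.9 in Python 3.11.15.

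The members, the gene lists and the tests were chosen with earlier results of these data known. Named are all 7 members, *Scnn1b*, up to 4 genes of a list with the lowest p in a described contrast, and the 5 genes nearest in pattern to each member called between genotypes. *Ccl24*, *Il33*, *Il4*, *Il13*, *Il5*, *Il25*, *Tslp*, *Siglecf*, *Epx* and *Prg2* were added to these after their values were seen. Replicates are pools that the labels call biological. Alternatives were other limma settings, filters, scalings and thresholds, a replicate block, and each array left out.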

Additional observations from a re-analysis of the deposited data

Results flagged for a closer look

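For 3 genes the change from PND 10 to PND 42 differed between *Scnn1b*-Tg and WT lungs by a test of the difference itself (limma, *Scnn1b*-Tg change minus WT change, n = 3 pools per group). The difference was 6.23 log2 for *Chil4*, whose WT pools fell while its *Scnn1b*-Tg pools rose. It was 3.23 log2 for *Chil3*, whose WT change did not pass the test while its *Scnn1b*-Tg pools rose. It was 2.23 log2 for *Chia1*, whose WT pools fell, and this call held in 8 of 12 fits that left out 1 array. Without moderation only the *Chil4* difference was called.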

How the results depend on the processing

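The 3 calls of *Chil4*, *Chil3* and *Chia1* at PND 42 kept direction and threshold under the alternatives run, and the counts of called members that moved by over 1.5 times were the following. The call at PND 10 was lost without moderation and with the compared arrays alone (0 members each) and ranged from 0 to 1 when 1 array was left out. Between PND 0 and PND 3 in *Scnn1b*-Tg lungs, 0 members were called without moderation and with array weights, 2 after repeated quantile normalization or subtracted array medians, 3 with no or a 1.5-fold threshold, and 0 to 2 without 1 array. In WT lungs that interval gave 2 members after repeated quantile normalization, 2 without a fold threshold, 1 at 1.5-fold and 0 to 1 without 1 array. PND 0 to PND 10 in WT gave 5 and PND 10 to PND 42 in *Scnn1b*-Tg gave 5 without a fold threshold, the latter also 5 at 1.5-fold. The difference of the PND 10 to PND 42 change between genotypes was called for 1 member without moderation, *Chil4* (*Chil3* had a limma adjusted p of 0.0514 there), and that of PND 3 to PND 10 for 0 to 1 without 1 array. Single values that changed sign with at least 1 of both fits over 1 SE from 0 were *Ctbs* from PND 0 to PND 3 in *Scnn1b*-Tg (0.0923 log2 after repeated quantile normalization), the difference of the *Chil1* change over PND 3 to PND 10 (-0.36 to 0.47 log2 without 1 array) and *Chit1* from PND 3 to PND 10 in *Scnn1b*-Tg (-0.21 to 0.14 log2). Counting values within 1 SE of 0 too, 27 of 119 values changed sign when 1 array was left out and 11 under the other alternatives. None of these was called in either fit, and the cause was not tested. With array medians subtracted, the median of all probe sets moved by up to 0.21 log2 over the intervals from PND 0. Same-numbered pools all correlated above 0.1 in 2 of 28 pairs of groups (WT with *Scnn1b*-Tg at PND 0, and *Scnn1b*-Tg PND 0 with PND 3), over a range of -0.255 to 0.299 in all 28, so the numbers were not taken to pair the pools. A replicate block raised the PND 42 count from 3 to 4 members by *Chil1* (1.13 log2, limma adjusted p = 0.0335) and moved no other count of called members. The filter on dim rows removed *Chit1*, and signals near the array background limit what can be seen of *Chit1*, *Chil5* and *Chil6*, and of *Chil4* at PND 0 and PND 3.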
